A study of Mus musculus with 6 samples.

Results

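The genes described here encode carriers of the mitochondrial inner membrane: the uncoupling proteins Ucp2 and Ucp3 and the ADP/ATP carriers Slc25a4 and Slc25a5. They were chosen by name, with earlier results of these data known. All 4 were found among 20121 genes with counts in hearts of mouse pups at postnatal day 14. The mutant group was 3 pups of the genotype Myh6-Cre; TRalphaAMI, in which Cre in heart muscle cells switches on a dominant negative thyroid hormone receptor alpha from a knock-in allele. The control group was 3 TRalphaAMI littermates, which carry the same allele without Cre, and all 6 pups had a mixed ICR and C57BL/6 background. No group carried Myh6-Cre alone, so Cre and the mutant receptor cannot be told apart. Whole hearts were sequenced, so cells in which the Cre is not driven are part of every value, and fewer cells of a type cannot be told apart from less RNA per cell.

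The carriers of the SLC25 family share a common fold and move metabolites across the inner mitochondrial membrane. ADP/ATP carriers bring ADP into the matrix and send out the ATP made by ATP synthase. Slc25a4 encodes the form that is abundant in heart and skeletal muscle, and Slc25a5 the form found in most other and in dividing cells. Uncoupling proteins are named after Ucp1, which lets protons leak across the membrane of brown fat mitochondria to make heat. Ucp2 is found in many tissues, macrophages among them, and Ucp3 mainly in skeletal muscle, brown fat and heart, and the transport role of both is still debated. Ucp3 is known in muscle as a gene that fatty acids and thyroid hormone raise.

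The libraries held 43314706 to 62095277 counts. All 9 heart muscle cell markers were high enough to test, with a summed level of 43442 to 48826 CPM (counts scaled to library size) in control and 38362 to 39725 CPM in mutant hearts, and 4 of them were called lower. Of tissues that also make uncoupling proteins, the 7 skeletal muscle markers analysed summed to 3.88 to 4.799 CPM in control and 2.41 to 2.78 CPM in mutant hearts. Of 4 fat cell markers analysed just Cidea was high enough to test and was not called, the list summed to 23.3 to 31.0 CPM in control and 27.2 to 29.9 CPM in mutant hearts, and Ucp1, the brown fat gene, had 0 to 2 counts per library. Of 5 markers each, 4 endothelial ones were called lower and 3 fibroblast ones higher. Across all 14877 genes tested, edgeR's quasi-likelihood test called 19.5% lower and 18.1% higher in mutant hearts at a Benjamini-Hochberg adjusted p under 0.05, or 37.5% in either direction. The labels name no extraction batch.

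Ucp2 and Ucp3 lie next to each other on chromosome 7, both on the plus strand. In mm10, Ucp3 (ENSMUSG00000032942) spans 100472990 to 100486432 and Ucp2 (ENSMUSG00000033685) spans 100493337 to 100502020, with 6904 bases between them. Slc25a4 (ENSMUSG00000031633) is on the minus strand of chromosome 8, 46206797 to 46211284, and Slc25a5 (ENSMUSG00000016319) on the plus strand of chromosome X, 36795651 to 36798807. The sequences before the start sites of the neighbouring pair that fell, and of the carrier gene that was not called, are shown from RefSeq (GRCm38.p6), read 5′ to 3′ on the gene's strand. All 4 genes matched that table. Windows were 250 bases before the RefSeq start, and bases that GENCODE M21 places inside the gene were left off. Both strands were searched, and capitals mark the letters of AGGTCA, the half-site of thyroid hormone and PPAR receptors, or of the GC box, spelled GGGCGG on its own strand.
Ucp3, chr7:100472741-100472989, plus strand: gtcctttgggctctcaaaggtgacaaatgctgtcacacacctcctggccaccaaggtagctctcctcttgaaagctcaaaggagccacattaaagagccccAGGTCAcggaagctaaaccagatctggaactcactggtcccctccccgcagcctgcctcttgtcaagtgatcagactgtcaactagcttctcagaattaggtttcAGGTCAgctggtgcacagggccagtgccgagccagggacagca
Ucp2, chr7:100493108-100493336, plus strand: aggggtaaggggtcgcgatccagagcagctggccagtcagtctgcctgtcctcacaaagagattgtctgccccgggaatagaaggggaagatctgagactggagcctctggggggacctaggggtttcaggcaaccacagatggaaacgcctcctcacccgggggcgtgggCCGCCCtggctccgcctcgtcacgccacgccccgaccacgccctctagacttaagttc
Slc25a5, chrX:36795347-36795596, plus strand: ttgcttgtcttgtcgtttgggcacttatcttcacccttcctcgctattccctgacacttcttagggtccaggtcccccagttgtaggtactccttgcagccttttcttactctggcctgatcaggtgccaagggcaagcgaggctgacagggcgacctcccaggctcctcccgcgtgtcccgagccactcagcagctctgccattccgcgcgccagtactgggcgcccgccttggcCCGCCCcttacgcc

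The Ucp3 window held AGGTCA at 2 places on the strand of the gene, beginning 149 and 44 bases before the start. AGGTCA was not found in the windows of Ucp2, Slc25a4 or Slc25a5, and 14.0% of 32851 promoter windows of this length held it. AGGTCA repeated on 1 strand with exactly 1 base or exactly 4 bases between was found in none of the 4 windows, and 0.0335% and 0.0152% of all windows held these repeats. Ucp2 and Slc25a5 each had 1 GC box on the opposite strand, a motif in 32.7% of windows, and Slc25a4 had CCAAT at 2 places on its own strand, a motif in 33.8% of windows. None of the 4 windows held the TATA box letters TATAAA, which 12.4% of windows held. The Slc25a4 window is not printed because GENCODE places most of it inside the gene. The windows differed in CpG pairs, with 3 in Ucp3 against 16 in Ucp2, 18 in Slc25a4 and 14 in Slc25a5, where the median over all windows was 6. No binding was measured, so these are matches of letters.

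Ucp2 had the deepest fall of the 4 genes. Its level was 309, 392 and 353 CPM in the control hearts and 116, 102 and 98.7 CPM in the mutant hearts. Every mutant heart was below every control heart, with the highest mutant at 116 and the lowest control at 309 CPM. The mean went from 351 ± 41.7 to 105 ± 8.86 CPM (SD, n = 3), 3.33-fold lower. The log2 fold change was -1.74 ± 0.10 (SE; adjusted p = 1.78e-06 by edgeR's quasi-likelihood test). Of all genes tested, 154 had a log2 fold change at or under that of Ucp2, itself included. Exons of Dnajb13 on the opposite strand cover 4.36% of the exon bases of Ucp2, and Dnajb13 is not among the genes analysed here.

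Macrophage markers, which come from cells that also express Ucp2, were lower in the same hearts. Of 11 such markers 9 fell, against 19.5% of all genes, and the other 2 were not called. Their median log2 fold change was -0.64. Their summed level was 170.0 to 185 CPM in control and 110 to 117 CPM in mutant hearts, and none was at 0. Their part in the fall of Ucp2 was not tested.

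Ucp3 fell 2.09-fold. Its level was 129, 129 and 142 CPM in control hearts and 58.8, 66.4 and 66.2 CPM in mutant hearts, again with no overlap between the groups. The means were 133 ± 7.57 and 63.8 ± 4.30 CPM (SD, n = 3), and the log2 fold change was -1.06 ± 0.07 (SE; edgeR adjusted p = 4.88e-06). The gene on the other side of Ucp3, C2cd3, moved the opposite way, with 21.7 ± 0.905 CPM in control and 27.8 ± 1.86 CPM in mutant hearts (edgeR adjusted p = 0.00358).

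Slc25a4, the muscle form of the ADP/ATP carrier, fell 1.68-fold. Its share of a library's counts was 0.447% to 0.528% in the controls and 0.340% to 0.365% in the mutants. It stood at 4939, 5819 and 5440 CPM in control hearts and at 3310, 3074 and 3247 CPM in mutant hearts. The groups did not overlap, and the mutant hearts lay closer together than the controls. The means were 5400 ± 441 and 3210 ± 122 CPM (SD, n = 3), with a log2 fold change of -0.75 ± 0.08 (SE; edgeR adjusted p = 6.71e-05). Of the 4 genes 3 were therefore called lower, against 19.5% of all genes, and none higher. The same 3 had no overlap between groups, which held for 25.4% of all genes in that direction, 24.4% in the other and 49.8% in either.

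Slc25a5, the form of other and dividing cells, was not called. Its level was 123, 135 and 121 CPM in control hearts and 133, 116 and 112 CPM in mutant hearts, and the groups overlapped. The log2 fold change was -0.07 with a 95% interval of -0.25 to 0.11 (edgeR adjusted p = 0.530), an interval that does not reach the -0.75 of Slc25a4. Cycling-cell markers rose in the same hearts, 5 of 5 against 18.1% of all genes. Their summed levels were 12.2 to 17.4 CPM in control and 41.3 to 54.5 CPM in mutant hearts. What part these markers had in the level of Slc25a5 was not tested.

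**Figure D1:**
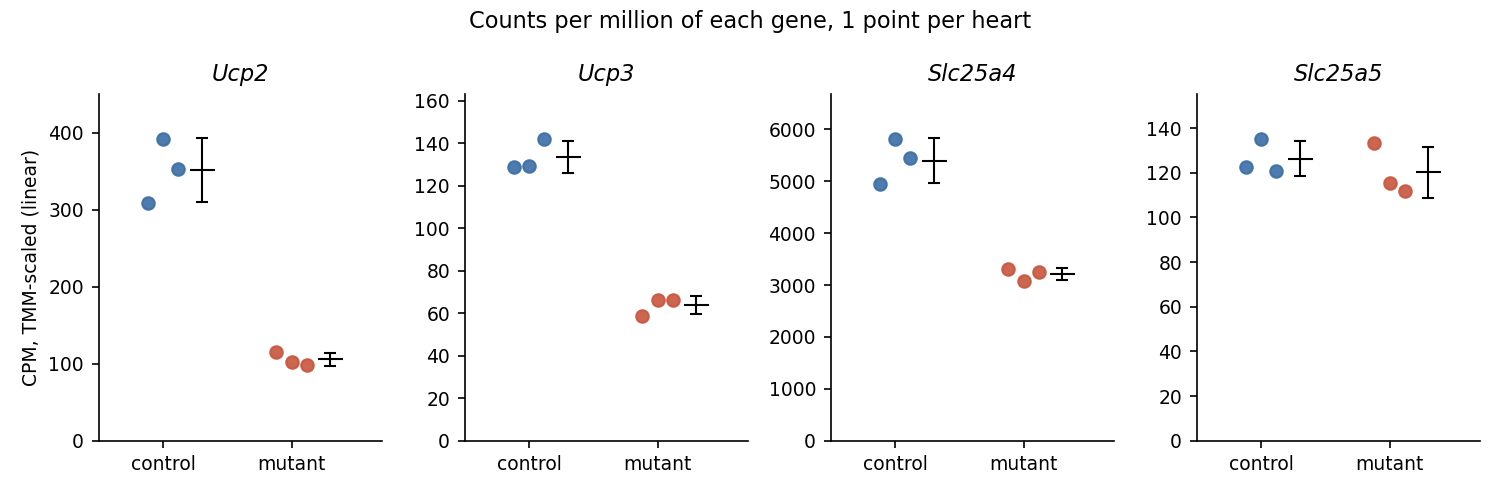
CPM of Ucp2, Ucp3, Slc25a4 and Slc25a5 on linear axes from 0, with 1 point per heart and the mean ± SD (n = 3) beside the points. Control and mutant hearts separate for Ucp2, Ucp3 and Slc25a4 and overlap for Slc25a5.

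The direction for Slc25a5 depended on how libraries were scaled. Transcripts of the mitochondrial genome made up 22.3% to 24.8% of counts in control and 16.7% to 18.8% in mutant hearts. What part this share had in the dependence on scaling was not tested. With library totals alone, the median log2 fold change of all genes was 0.28, and that of Slc25a5 was 0.21 with a call as higher (edgeR adjusted p = 0.0337). On that scale 86.1% of all calls were higher, against 48.1% with TMM scaling. Relative to the median gene Slc25a5 was at -0.07 on library totals and with TMM scaling, but at 0.12 with limma on log2(RPKM + 1) without a filter. Ucp2, Ucp3 and Slc25a4 stayed lower without the scaling, at -1.45, -0.78 and -0.47. Counts of lists shifted as well: on log2(RPKM + 0.1) with limma, where the median gene was at 0.27, 55 of 61 respiratory chain genes were called lower and 1 higher, and 15 of 17 ATP synthase genes lower and 1 higher. On that scale 7 macrophage markers were called lower, 4 cycling markers higher and 0 endothelial markers lower, and of the heart muscle markers 3 were called higher and 2 lower.

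**Figure D2:**
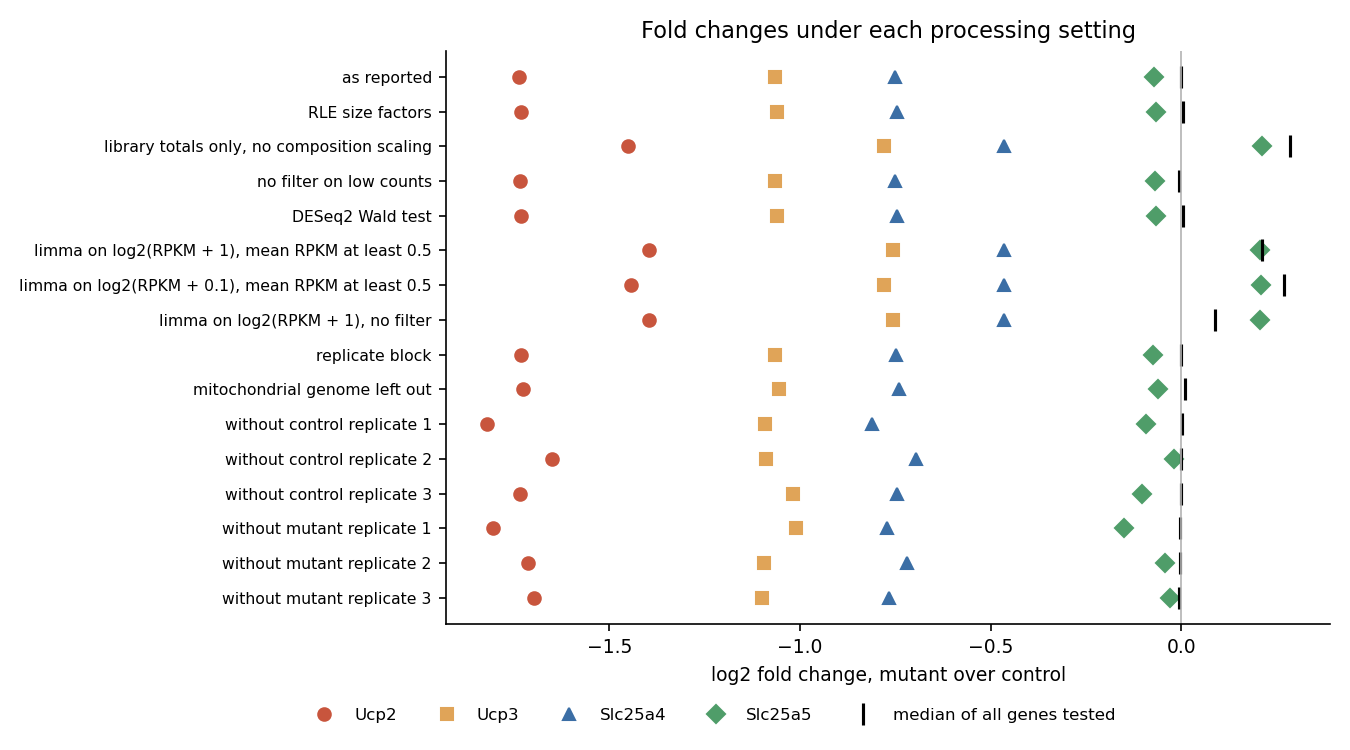
Log2 fold change (mutant over control) of the 4 genes under each processing setting, with the median of all genes tested as a black bar. Ucp2, Ucp3 and Slc25a4 lie below 0 in every setting drawn, while Slc25a5 crosses 0 in the 4 settings that lack composition scaling, where the median gene also lies above 0.

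Levels of different genes were compared as RPKM, which divides a read count by gene length and library total. In control hearts Slc25a4 had 2068 ± 171 RPKM (SD, n = 3), rank 17 of 20121 genes, followed by Slc25a5 with 69.2 ± 4.37, Ucp2 with 45.3 ± 5.43 and Ucp3 with 38.3 ± 2.14 RPKM. Ucp2 (39.8 to 50.6 RPKM) and Ucp3 (37.0 to 40.8 RPKM) overlapped there. In mutant hearts the RPKM order was Slc25a4 (1496 ± 53.7), Slc25a5 (80.1 ± 6.12), Ucp3 (22.3 ± 1.88) and Ucp2 (16.5 ± 1.08; SD, n = 3), with no overlap between neighbours. The place of Ucp2 rests on a gene length of 7029 bases that the values imply, whereas its principal transcript has 3988 bases. On principal transcripts Ucp2 would have 79.8 ± 9.57 and Ucp3 49.4 ± 2.75 RPKM in control hearts, and 29.1 ± 1.89 and 28.8 ± 2.42 RPKM in mutant hearts (SD, n = 3). For Ucp3 these values use the longer of 2 principal transcripts, 2448 bases, and the other has 1260 bases, which would raise its level. The order of Ucp2 and Ucp3 therefore depends on the length taken.

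The ADP/ATP carrier genes are related in sequence. Their coding sequences, each of 897 bases, were 77.5% identical, those of Ucp2 and Ucp3 75.3%, and pairs across the 2 kinds 50.4% to 54.7%. No stretch of 50 bases of the Slc25a4 or Ucp3 transcript occurred in a transcript of another gene. For Slc25a5, 46.6% of such stretches also occurred in 9 processed pseudogenes, none of which is among the genes analysed here. How reads that match several places were counted is not given in the sources used here, so the level of Slc25a5 is uncertain.

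The ratio of the muscle form to the other form was lower in every mutant heart. The ratio of Slc25a4 to Slc25a5 in RPKM was 28.1, 30.1 and 31.5 in control hearts and 17.4, 18.6 and 20.3 in mutant hearts. On the log2 scale the means were 4.90 ± 0.08 and 4.23 ± 0.11 (SD, n = 3), a difference of -0.67 (two-sided exact permutation test, p = 0.1, the smallest that 3 hearts against 3 allow). Slc25a4 still supplied most of the summed carrier transcript, 96.8% ± 0.176 of it in control hearts and 94.9% ± 0.374 in mutants (SD, n = 3). The sum itself went from 2137 ± 175 to 1576 ± 54.96 RPKM (SD, n = 3), on a scale without composition correction. Both the ratio and the share rest on the level of Slc25a5, which is uncertain because of its matches to pseudogenes.

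The ratio of Ucp2 to its neighbour was also lower in every mutant heart. The log2 ratio of Ucp2 to Ucp3 in RPKM was 0.10, 0.44 and 0.16 in control hearts and -0.18, -0.53 and -0.58 in mutant hearts. The difference of means was -0.67 (two-sided exact permutation test, p = 0.1, again the smallest possible). This difference does not depend on the gene lengths used.

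Set against the respiratory chain of the same heart, the 4 genes took different places. Nuclear genes for respiratory chain subunits fell together, 58 of 61 tested against 19.5% of all genes, with none higher. Their median log2 fold change was -0.68. Those of smallest adjusted p were Ndufa1, Ndufa5 and Ndufs4 of complex I and Cox7a1, a muscle form of a cytochrome oxidase subunit, with log2 fold changes of -1.14, -1.02, -1.01 and -1.67. Relative to the median subunit in log2 CPM, Slc25a4 stood at 4.17, 4.35 and 4.20 in control and at 4.40, 4.41 and 4.30 in mutant hearts. Its difference was 0.13, and the groups overlapped (two-sided exact permutation test, p = 0.2), and it turned to -0.11 when log2(RPKM + 1) was used. The measure takes the median level of the subunits in each heart, which is not the median of their fold changes. By log2 fold change Slc25a4, at -0.75, lay below the subunit median of -0.68. Of the 61 subunits 22 had a log2 fold change below that of Slc25a4.

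Ucp3 had a difference of -0.19 against the respiratory chain, with overlapping groups (two-sided exact permutation test, p = 0.2). On log2(RPKM + 1) the difference was -0.40, with p = 0.1 in the same exact test. Ucp2 stood lower against it in every mutant heart, from a mean of 0.30 ± 0.15 to -0.56 ± 0.16 in log2 CPM (SD, n = 3), a difference of -0.85 without overlap (two-sided exact permutation test, p = 0.1). No subunit had a log2 fold change below that of Ucp2, and 3 had one below that of Ucp3. Slc25a5 stood higher against the chain by 0.81, from -1.17 ± 0.11 to -0.37 ± 0.17 in log2 CPM (SD, n = 3), without overlap and with the same p of 0.1 in the exact permutation test. Over 9 alternatives, log2(RPKM + 1) among them, the difference was -1.04 to -0.76 for Ucp2 and 0.57 to 0.90 for Slc25a5. By log2 fold change Ucp2 was at -1.74 and Slc25a5 at -0.07, against the subunit median of -0.68.

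**Figure D3:**
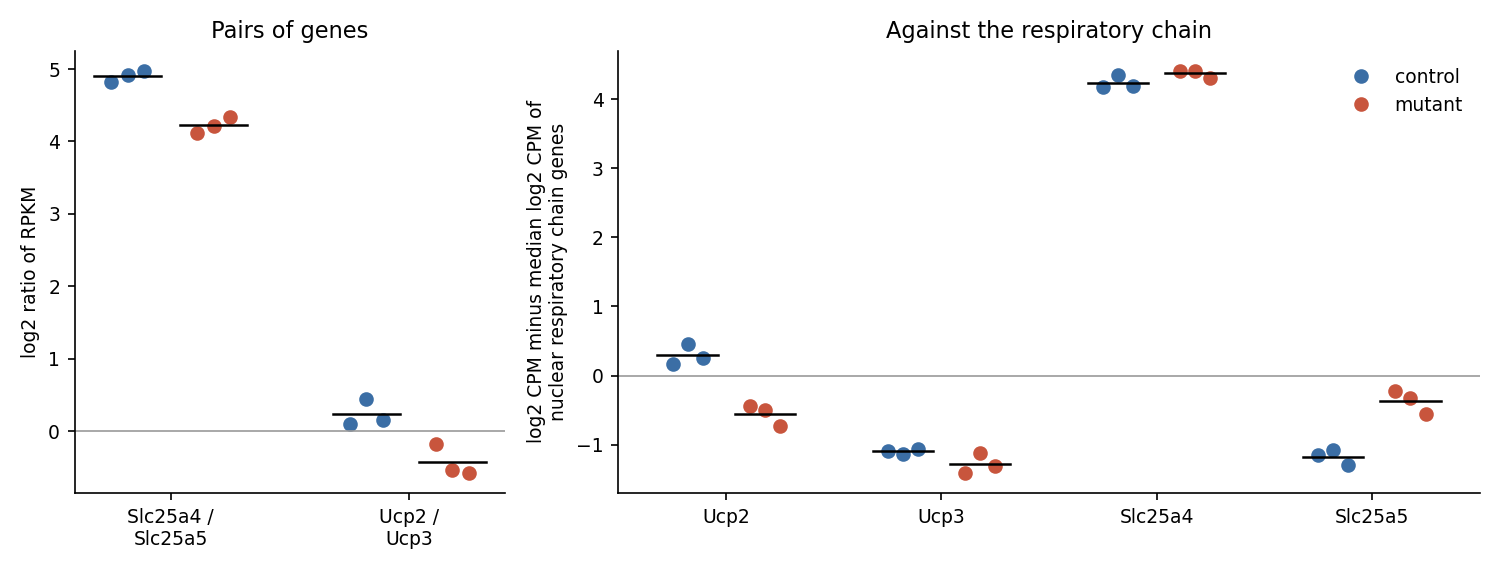
Log2 values computed within each heart: ratios of RPKM between paired genes on the left, and log2 CPM minus the median of 61 nuclear respiratory chain genes on the right, with 1 point per heart and bars at the means. Slc25a4 and Ucp3 overlap between groups on the right, Ucp2 lies lower and Slc25a5 higher in mutant hearts.

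Of 9 other carriers of the same kinds 3 were called, against 37.5% of all genes. Of 3 further uncoupling-like genes tested, Slc25a30 was called higher, from 8.74 ± 1.12 to 10.9 ± 0.425 CPM (SD, n = 3; edgeR quasi-likelihood adjusted p = 0.0376). That call was lost when any heart but control replicate 2 was left out (adjusted p of 0.0713 to 0.114). Slc25a27 and Slc25a14, brain-type members, had log2 fold changes of 0.08 and -0.04 and were not called, but on library totals Slc25a27 was called higher (0.37, edgeR adjusted p = 0.0201). Ucp1 was too low to test.

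Among 6 further carriers of adenine nucleotides, phosphate or coenzyme A, 2 were called lower and none higher, against 19.5% and 18.1% of all genes. Slc25a3, which brings in the phosphate for ATP synthesis, had 1527 ± 29.3 CPM in control hearts and 1217 ± 46.1 CPM in mutants (SD, n = 3), 1.25-fold lower (edgeR adjusted p = 0.00255). Slc25a23, a calcium-regulated ATP-Mg/phosphate carrier, had a log2 fold change of -0.29 (edgeR adjusted p = 0.0449). Both calls were lost on library totals alone, at -0.04 and -0.01, and in each setting without composition scaling the list had 2 calls higher and 0 lower. The call of Slc25a23 was also lost without control replicate 2, control replicate 3 or any mutant replicate (adjusted p of 0.0709 to 0.158), and with the mitochondrial genome left out (0.0508). Its relatives Slc25a24 and Slc25a25, the coenzyme A carrier Slc25a42 and the testis-type ADP/ATP carrier Slc25a31 were not called, with log2 fold changes of 0.28, -0.53, 0.13 and -0.07. The calls higher without composition scaling were Slc25a24 and Slc25a42, at 0.57 and 0.42 on library totals (edgeR adjusted p = 0.00255 and 0.00916). Slc25a24 was also called without control replicate 1 (0.42, edgeR adjusted p = 0.00798). Slc25a31 was at 0.496 CPM in control hearts, and Slc25a41 was too low to test.

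Over the whole SLC25 family 45 genes were tested, of which 2 were called higher and 20 lower, against 18.1% and 19.5% of all genes. The 20 include Ucp2, Ucp3 and Slc25a4, and the family median log2 fold change was -0.21. On library totals the median of all genes was 0.28, and family calls were not counted on that scale. Of the 20, only Slc25a20 and Slc25a39 had a higher mean RPKM in mutant hearts (37.5 against 35.2, and 31.1 against 29.5). Both are named after their values were seen. Within the family Slc25a4 made up 68.5% of the summed RPKM in control and 63.0% in mutant hearts, taking group means. By log2 fold change Ucp2 had the third lowest value, Ucp3 the sixth and Slc25a4 the seventh. The lowest were Slc25a33, a pyrimidine nucleotide carrier (5.28-fold lower), and Slc25a29, a carrier of basic amino acids (4.28-fold lower), which are named after their values were seen.

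**Figure D4:**
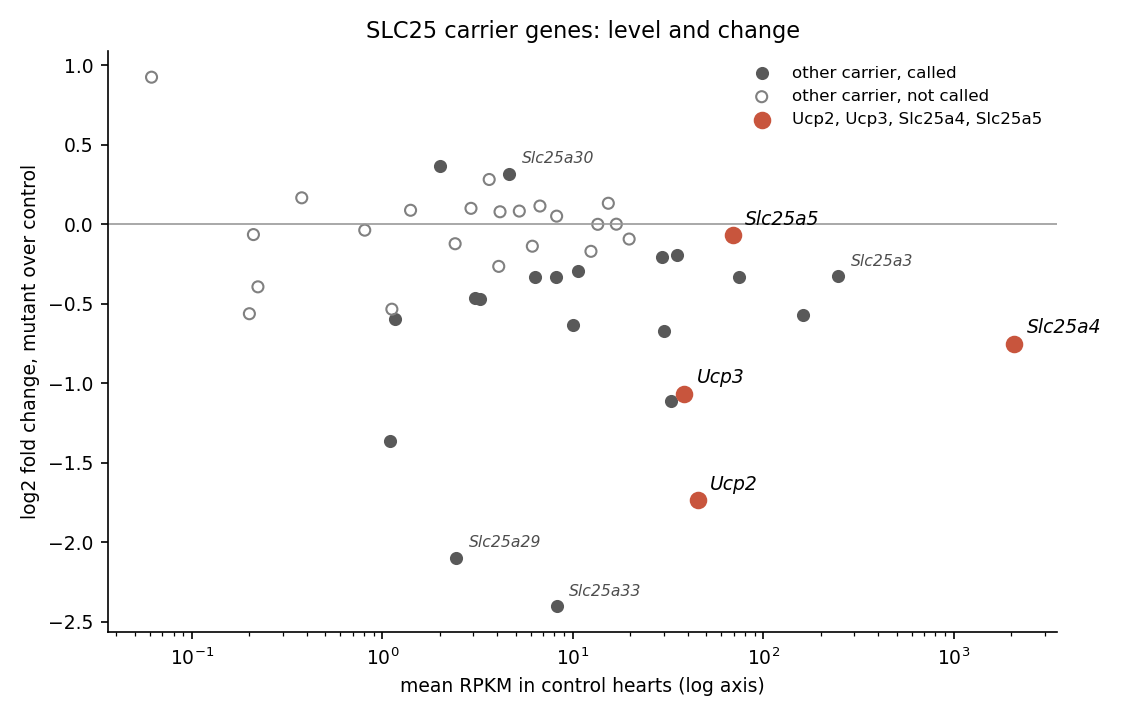
Log2 fold change (mutant over control) against mean RPKM in control hearts, on a log axis, for the 45 tested SLC25 genes. Among the other carriers, filled points had an edgeR quasi-likelihood adjusted p under 0.05. Ucp2, Ucp3, Slc25a4 and Slc25a5 are drawn filled whether called or not, and Slc25a5 was not called. Slc25a4 lies far to the right of the others.

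Among partners of the ADP/ATP carriers, ATP synthase genes mostly fell as well. Of 17 ATP synthase subunit genes tested 15 fell and none rose, against 19.5% and 18.1% of all genes. Their median log2 fold change was -0.65, near that of Slc25a4. The c-ring subunit gene Atp5g1 fell 1.88-fold, Atp5e 1.78-fold, Atp5f1 1.68-fold and Atp5j by 0.68 on the log2 scale. Of 7 genes for outer membrane channels and partners in the permeability transition, 4 fell and 2 rose, against 19.5% and 18.1% of all genes. Their median log2 fold change was -0.20. On log2(RPKM + 0.1) with limma, 3 of these were called lower and 3 higher, and the median turned to 0.08. Hk2, a hexokinase that docks on the outer membrane, fell 4.54-fold to 52.0 ± 3.42 CPM (SD, n = 3), whereas its relative Hk1 rose 1.49-fold to 273 ± 1.55 CPM. The channel gene Vdac1 fell 1.43-fold, from 917 ± 24.8 CPM, and Tspo, an outer membrane cholesterol-binding protein, rose 1.54-fold. The other two that fell, named after their values were seen, were Ppif, the cyclophilin of the permeability transition (1.43-fold), and Vdac3 (a log2 fold change of -0.20).

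Of 7 phosphotransfer enzymes tested, which pass on the energy that the carriers export, 4 fell and 1 rose. Over all genes the shares called were 19.5% lower and 18.1% higher. Ckmt2, the mitochondrial creatine kinase of muscle that works beside the ADP/ATP carrier, fell 3.21-fold, from 1318 ± 67.3 to 410 ± 29.1 CPM (SD, n = 3). The cytosolic creatine kinase gene Ckm fell 1.54-fold and the adenylate kinase gene Ak1 1.19-fold, while Ak4 rose 1.28-fold. Ckb, the other that fell, had a log2 fold change of -0.25 and is named after its values were seen. The calls of Vdac3, Ak1 and Ckb were lost on library totals alone, at 0.08, 0.03 and 0.03, and when some single hearts were left out. For Vdac3 these were control replicate 2, mutant replicate 2 and mutant replicate 3, for Ak1 control replicate 2 and mutant replicate 2, and for Ckb control replicate 2, mutant replicate 1 and mutant replicate 2.

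Genes for PPAR, RXR and ERR receptors and their coactivators were called in both directions. Of 11 such genes 6 fell and 1 rose, against 19.5% and 18.1% of all genes. Their median log2 fold change was -0.26. On log2(RPKM + 0.1) with limma, 4 were called lower and 3 higher, with a median of 0.03. Rxrg fell 3.74-fold, Ppard, the form that responds to fatty acids in muscle, 1.89-fold, Esrrb 1.59-fold, and Pparg by 0.58 on the log2 scale. The call of Pparg was lost with limma on log2(RPKM + 1) without a filter (-0.25, adjusted p = 0.0511). Ppara, the main fatty acid sensor of heart, had a log2 fold change of -0.33 and missed the threshold (edgeR adjusted p = 0.0550), but passed it with DESeq2 (adjusted p = 0.0246) and without control replicate 3 (7.57e-04). Esrrg was the gene that rose, by 0.28 on the log2 scale, a call lost without control replicate 3 or mutant replicate 1 (adjusted p of 0.0566 and 0.0519). Ppara and Esrrg are named after their values were seen.

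Target genes of these receptors were called in both directions. Of 19 tested, 6 rose and 8 fell, against 18.1% and 19.5% of all genes. Their median log2 fold change was -0.16. On log2(RPKM + 0.1) with limma, 9 were called higher and 4 lower, and the median turned to 0.12. The thioesterase genes Acot1 and Acot2 rose 3.55-fold and 1.91-fold, and Angptl4, a secreted lipase inhibitor, 2.23-fold. Pdk4, the kinase that shuts off pyruvate dehydrogenase, had 1797 ± 233 CPM (SD, n = 3) in control hearts and 1194 ± 124 CPM in mutants, 1.51-fold lower, and is named after its values were seen. Its call was lost with limma on log2(RPKM + 1) without a filter (-0.30, adjusted p = 0.0764).

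**Figure D5:**
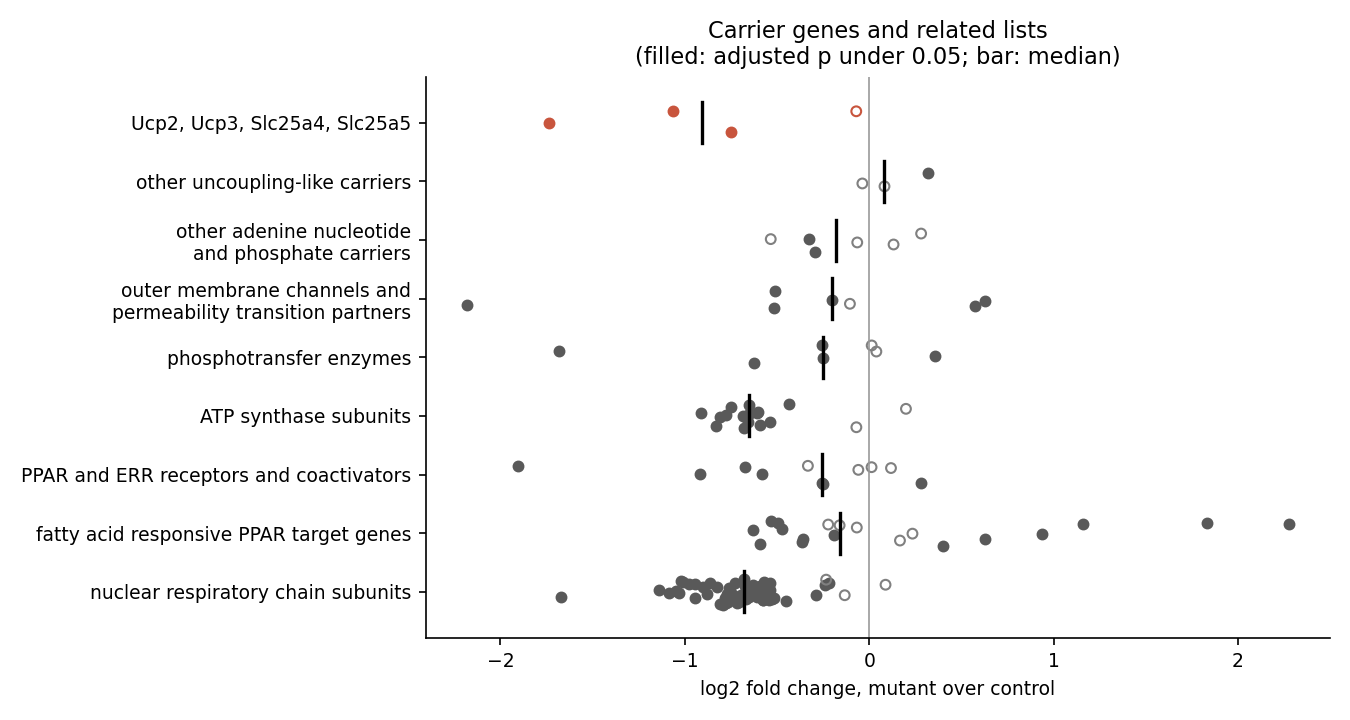
Log2 fold change (mutant over control) of the 4 carrier genes and of each related list, with 1 point per tested gene, filled where the edgeR quasi-likelihood adjusted p was under 0.05, and a bar at the median. ATP synthase and respiratory chain genes lie mostly to the left of 0, and the PPAR targets spread to both sides, with Acadvl and Pdk4 at the left end.

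The genes whose log2 CPM followed each carrier most closely over the 6 hearts were found by Pearson's r among 12011 others. The hearts form 2 groups, the points share the difference between groups, and r is given as a description. For Ucp2 these were Klhdc8a, Hr and Tex2 (r of 0.9995, 0.9994 and 0.9992), and for Ucp3 the amino acid transporter gene Slc38a3, the proline dehydrogenase gene Prodh and the lactate dehydrogenase gene Ldhd (r of 0.9993, 0.9988 and 0.9987). Hr, a nuclear receptor corepressor known as a target of thyroid hormone in brain, fell 2.44-fold, and Prodh 4.65-fold. For Slc25a4 they were the cytochrome oxidase gene Cox6b1, Tmem147 and the complex I gene Ndufv3 (r of 0.9997, 0.9996 and 0.9993), which fell 1.59-fold, 1.54-fold and 1.93-fold. For Slc25a5 the closest were Ss18, Arfgef2 and Ptar1, at a lower r of 0.960, 0.953 and 0.950, and none of these was called with all 6 hearts. Without mutant replicate 1 Ptar1 was called lower (-1.29, edgeR adjusted p = 0.0377), and on library totals Ss18 and Arfgef2 were called higher (0.26 and 0.23, edgeR adjusted p = 0.00340 and 0.0120). Helt, a coding neighbour of Slc25a4, was too low to test, with 0 to 4 counts per library. The other coding neighbours of Slc25a4 and of Slc25a5 were not called. Cfap97 beside Slc25a4 had a log2 fold change of -0.05. Beside Slc25a5, Slc25a43 had 0.92 at a level of 0.121 CPM in control hearts, and C330007P06Rik had 0.00. On library totals Cfap97, Slc25a43 and C330007P06Rik were called higher, at 0.23, 1.21 and 0.29 (edgeR adjusted p = 0.0127, 0.0170 and 0.0132).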

How the data were processed

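RNA from whole hearts of 3 control and 3 mutant pups was sequenced from TruSeq version 2 libraries, a kit that does not mark strand, per the labels' protocols. The counts per Ensembl gene were deposited as whole numbers, one table per heart, and RPKM values were made by the authors beside them. The submitters' processing notes name cutadapt 1.9, STAR 2.5.2b, featureCounts 1.5.1 and mm10, with no role or order. Which annotation and strand setting they used, and what they did with reads matching several places, is not stated in the labels or files. Symbols and positions came from GENCODE M21, which matched 20081 of 20121 identifiers.

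The main test was edgeR's quasi-likelihood F test (version 4.0.16, R 4.3.3) on 14877 genes kept by filterByExpr, with TMM scaling, group as the term and Benjamini-Hochberg adjustment over those genes. CPM uses TMM-scaled library sizes, and log2 CPM a prior count of 2. SEs of log2 fold changes were approximated from F values, and intervals use the fit's degrees of freedom. The fit was tested on simulated data with 50 genes changed at each of 4 sizes. Recovery was 72% at 1.5-fold, 86% at 2-fold, 96% at 4-fold and 100% at 8-fold, so small changes can be missed. Within-heart ratios were compared with exact permutation tests over samples (scipy 1.17.1), and coding sequences were aligned with Biopython 1.88. Alternatives used DESeq2 1.42.0 and limma 3.58.1.

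The members, lists and tests were chosen with earlier results of these data known. The genes named are the 4 carriers, all genes of the 2 lists of related carriers, in each other list the called genes of smallest adjusted p (at most 4), the 3 genes most like each carrier (mean CPM of at least 1, no predicted models) and their coding neighbours. Others are marked as named after their values were seen. A gene that this rule picks among the PPAR targets is not reported here. Replicate pairs differed by far more than sampling noise, with a chi-square per degree of freedom of 10.6 to 30.0 over genes. Nothing in the labels says more than that the pups were littermates, so p-values cover variation among these animals.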

Additional observations from a re-analysis of the deposited data

How the results depend on the processing

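Ucp2, Ucp3 and Slc25a4 kept their direction and call in all 15 alternatives, and leaving out single hearts gave log2 fold changes of -1.82 to -1.65, -1.10 to -1.01 and -0.81 to -0.69. Slc25a5 gave -0.15 to -0.02 there and was not called. The labels do not say whether replicate numbers pair the hearts, and 3 hearts a group cannot settle it. Correlations of same-numbered deviations were 0.15, -0.05 and 0.10, and those of differently numbered ones -0.18 to 0.09. With a replicate block 3090 genes were called higher and 3229 lower, against 2688 and 2898 without it. That fit gave -1.73, -1.07, -0.75 and -0.07 for Ucp2, Ucp3, Slc25a4 and Slc25a5. It changed no call of these 4, while 1 nucleotide carrier, Slc25a24, was called higher and Ppara lower with it (edgeR adjusted p = 0.0187 for Ppara). With the mitochondrial genome left out, 1 nucleotide carrier was called lower.

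Composition scaling was absent from 4 settings: library totals, limma on log2(RPKM + 1), limma on log2(RPKM + 0.1), and limma on log2(RPKM + 1) without a filter. In that order Slc25a5 had 0.21, 0.21, 0.21 and 0.21, with 7479, 6595, 6584 and 6916 genes higher and 1207, 1083, 1077 and 1170 lower. Nucleotide carriers were called 2 higher and 0 lower in each, phosphotransfer enzymes 3 higher and 2 lower, and ATP synthase and respiratory chain genes 1 higher each. Uncoupling-like carriers were called 2 higher in the first 3 of these. PPAR and ERR genes were called 3, 3, 3 and 2 higher, and 3 lower in the last, and PPAR targets 4, 4, 4 and 3 lower. Signs turned for Slc25a14 (0.25, 0.11, 0.21, 0.11), Ak1 (0.03 in each: 0.0286, 0.0296, 0.0298, 0.0296), Ckb (0.0334, 0.0323, 0.0353, 0.0323), Vdac3 (0.0835, 0.0751, 0.0811, 0.0751), Ss18 (0.26, 0.23, 0.26, 0.23), Arfgef2 (0.23, 0.20, 0.22, 0.20) and Cfap97 (0.23, 0.19, 0.23, 0.19). They also turned for Slc25a31 (0.22 on library totals, 0.0387 without a filter) and Slc25a23 (0.00083, 0.00166 and 0.00083 in the RPKM settings). Slc25a4 against the respiratory chain was -0.11 on log2(RPKM + 1), and the cause was not tested.

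Leaving out single hearts gave 2039 to 2661 genes higher and 2234 to 2856 lower, 0 to 1 uncoupling-like carriers higher, 0 to 1 nucleotide carriers higher and 1 to 2 lower, 2 to 4 phosphotransfer enzymes lower and 0 to 1 PPAR and ERR genes higher. Log2 fold changes that were not called changed sign there: Slc25a27 (-0.0100 to 0.18), Slc25a14 (-0.14 to 0.11), Slc25a31 (-0.66 to 0.39), Ptar1 (-1.29 to 0.28) and C330007P06Rik (-0.0412 to 0.0616). With 3 hearts a group, the exact tests of ratios could not pass 0.05.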
